A study of Homo sapiens with 4 samples.

Results

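The metallothionein genes followed here are MT1A, MT1E, MT1F, MT1G, MT1H, MT1M, MT1X and MT2A, and they were represented by every probe that the platform annotation names after one of them. That rule gave 9 of the 47318 probes on the array and 7 of the 8 genes. MT1E and MT1H had 2 probes each, MT1F, MT1G, MT1M, MT1X and MT2A had 1, and MT1A was named by 0 probes in the annotation used here. The arrays, Illumina bead arrays, read RNA of U87, a long-established human line derived from a glioblastoma. One group was transfected with a synthetic piR-598 mimic, a copy of a PIWI-interacting RNA, and the other with an NC oligo, a purchased control designed for experiments with microRNA inhibitors. Both groups received 25 nM of oligo with the same lipid reagent and were sampled at 24 h, with 2 arrays each. The submitters call the arrays biological duplicates, and the labels do not say whether they came from separate cultures, so the p-values below reflect the spread between these 4 arrays, which may be technical.

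Metallothioneins are small cysteine-rich proteins that hold zinc and copper in clusters and also bind toxic metals such as cadmium. Their genes lie side by side on chromosome 16. Metals induce them through MTF1, a zinc-finger transcription factor that binds metal response elements in their promoters, and glucocorticoids and oxidative stress are further known inducers. In the brain, the MT1 and MT2 forms are best known from astrocytes. The mRNAs of this family are near-identical in long stretches, so which copy a probe reads is uncertain.

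Mean signal per array ran from 273.0 to 284.8 with the mimic and from 300.0 to 305.8 with the NC oligo, and the mimic arrays detected 19698 to 20324 probes, against 19627 to 20157 on the NC oligo arrays (detection p under 0.05). With 2 arrays per group, the number of arrays limits the precision. After normalization the 2 mimic arrays agreed least of all pairs over 20188 probes, with r = 0.9906 and an SD of the log2 difference of 0.292. The 2 NC oligo arrays had 0.9941 and 0.231, and so did mimic array 2 with NC oligo array 2. The glial and mesenchymal markers VIM, NES, CD44, FN1 and TNC were detected on all 4 arrays, while the astrocyte markers GFAP and S100B were detected on 0. Of the other cell types listed, the endothelial markers CDH5 and VWF and the oligodendrocyte markers MBP and MOG were detected on 0 arrays, and PECAM1 on 1. Of the neuronal markers SNAP25 was detected on all 4, STMN2 on 1, and RBFOX3 and SYT1 on 0. Of the microglial markers AIF1 and CSF1R were detected on all 4, CX3CR1 on 1 and PTPRC on 0. The signals of SNAP25 ILMN_1740555 (336 to 458) and CSF1R (485 to 498) stood above those of FN1 ILMN_1778237 (120 to 140).

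Metallothionein transcripts were detected in U87 cells of both groups, and none differed between them by the test. In RNA from whole cultures, fewer cells with a transcript and less of it per cell cannot be told apart. Detection, meaning a deposited detection p under 0.05, was met on all 4 arrays by 8 of the 9 probes. Each of the 7 genes with a probe thus had a detected probe, though which copy it reads is uncertain. The 9th, ILMN_1683923 for MT1H, was detected on 0 of 4 arrays, with a signal of 87.04 and 89.9 in mimic cells and 87.02 and 95.2 in NC oligo cells. It was not tested, and the other MT1H probe was well detected, so the probes of this gene disagreed. The probes of MT1E disagreed in a similar way, one near background and one bright.

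**Figure D1:**
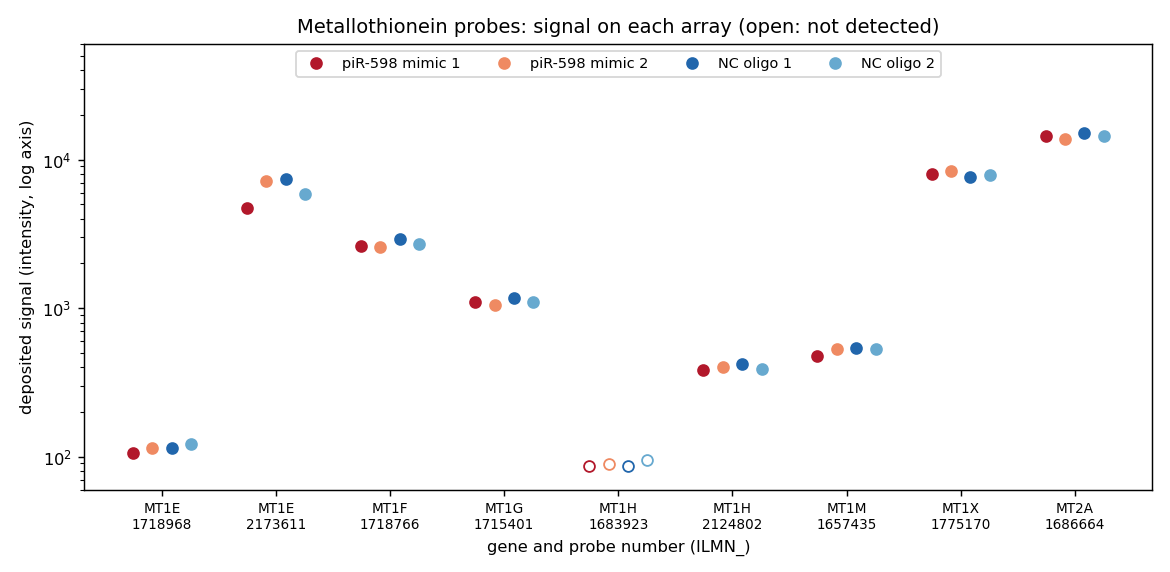
Deposited signal intensity (log axis) of each metallothionein probe on the 2 piR-598 mimic arrays and the 2 NC oligo arrays. Each point is 1 array, and open points mark arrays where the probe was not detected. The arrays spread most at MT1E ILMN_2173611, where they run from 4697 on mimic array 1 to 7368 on NC oligo array 1.

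MT2A encodes the main metallothionein of many human tissues. Its probe read 14500.3 and 13852 in mimic cells, against 15112 and 14508 in NC oligo cells. These signals stood at the top of the scale, at 95.7% and 94.9% of the highest signal on the mimic arrays and at 99.3% and 100% of it on the NC oligo arrays. On NC oligo array 2 the MT2A probe was itself the brightest of the array. The deposited columns hold no saturation flag, so how far signals at this height still follow the amount of RNA was not tested.

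After background correction, quantile normalization and log2 transformation, MT2A had 13.81 and 13.79 in mimic cells, against 13.83 and 13.85 in NC oligo cells. The mimic arrays thus lay just below the NC oligo arrays, without overlap. The log2 fold change, given throughout as piR-598 mimic minus NC oligo, was -0.04 ± 0.14 (SE, limma adjusted p = 0.992). Its sign was the opposite with cyclic loess, at 0.05, and on the authors' scaled signals, at 0.06, so no direction is given for MT2A.

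MT1X, one of the MT1 genes expressed in many tissues, was the member with the smallest p of the family. Its probe read 7989.8 and 8366 in mimic cells, against 7622 and 7882 in NC oligo cells. On the normalized log2 scale it had 13.02 and 13.06 in mimic cells, against 12.78 and 12.90 in NC oligo cells. Both mimic arrays lay above both NC oligo arrays in the deposited, the scaled and the normalized values. The log2 fold change was 0.20 ± 0.14 (SE), or 1.15-fold with a 95% interval of 0.917 to 1.44, and it did not pass the test (limma adjusted p = 0.935). It ranked 4244 of 20188 tested probes by p.

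MT1E, another MT1 gene, showed the widest spread between arrays of one group. Its bright probe, ILMN_2173611, read 4697 and 7151 in mimic cells, against 7368 and 5866 in NC oligo cells. On the normalized log2 scale it had 12.28 and 12.85 in mimic cells, against 12.74 and 12.46 in NC oligo cells, so the mimic arrays held both the lowest and the highest value. The mimic arrays differed by 0.57 in size on that scale, a difference reached or passed by 5.55% of the tested probes. The log2 fold change was -0.04 ± 0.21 (SE, limma adjusted p = 0.994). It was 0.25 without mimic replicate 1, -0.32 without mimic replicate 2, 0.11 with NC oligo array 1 left out and -0.18 with NC oligo array 2 left out, so single arrays decided its sign.

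The dim probe of MT1E, ILMN_1718968, read 106 and 115 in mimic cells, against 114 and 122 in NC oligo cells. On the normalized log2 scale these were 5.11 and 5.31 in mimic cells, against 5.09 and 5.38 in NC oligo cells, and the groups overlapped. Its log2 fold change was -0.03 ± 0.16 (SE, limma adjusted p = 0.994). After normalization mimic array 1 was the lowest of the 4 at the bright probe, while at the dim one mimic array 1 and NC oligo array 1 lay together at the low end.

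MT1F and MT1G, 2 further MT1 genes, overlapped between the groups. MT1F read 2619.9 and 2579 in mimic cells, against 2931 and 2699 in NC oligo cells, which became 11.41 and 11.33 against 11.39 and 11.31 on the normalized log2 scale. Its log2 fold change was 0.03 ± 0.14 (SE, limma adjusted p = 0.994). The deposited signals of MT1F were lower on both mimic arrays, whose mean signals were lower as well, and this order was gone once the arrays were scaled. MT1G read 1107 and 1045 in mimic cells, against 1171 and 1091 in NC oligo cells, or 10.13 and 9.97 against 10.00 and 9.92 on the normalized log2 scale. Its log2 fold change was 0.09 ± 0.15 (SE, limma adjusted p = 0.978).

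MT1H and MT1M, which likewise encode MT1 proteins, did not overlap between the groups after normalization. MT1H, read by probe ILMN_2124802, had a signal of 384 and 399 in mimic cells, against 421 and 387 in NC oligo cells. The deposited signals overlapped, while the normalized log2 values of 8.45 and 8.36 in mimic cells lay above the 8.32 and 8.20 in NC oligo cells. Its log2 fold change was 0.15 ± 0.14 (SE, limma adjusted p = 0.96). MT1M read 479 and 531 in mimic cells, against 535 and 531 in NC oligo cells, and had 8.83 and 8.86 against 8.73 and 8.75 after normalization. Its log2 fold change was 0.10 ± 0.14 (SE, limma adjusted p = 0.973). Its arrays overlapped again on the authors' scaled signals, so the separation of MT1M depended on the normalization.

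**Figure D2:**
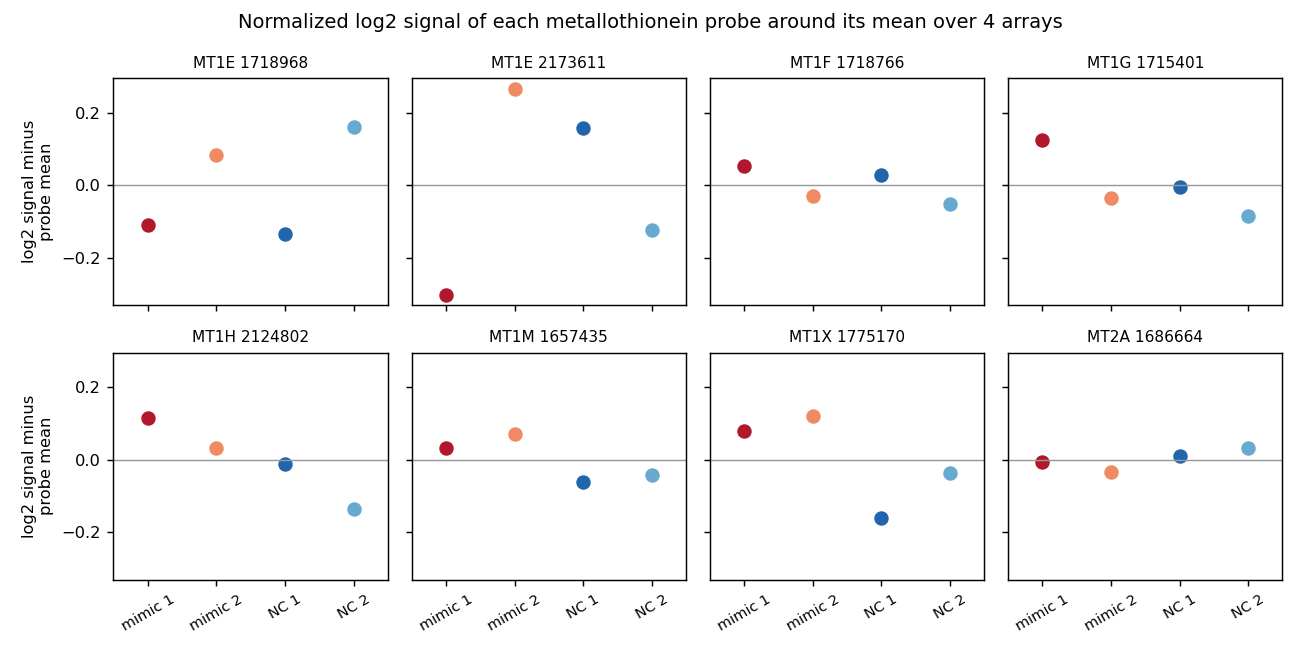
Normalized log2 signal of each tested metallothionein probe minus its mean over the 4 arrays, with the 2 mimic arrays left and the 2 NC oligo arrays right. Each point is 1 array, and MT1X is the panel with the mimic arrays highest above the NC oligo arrays, while MT1E ILMN_2173611 spreads most within the mimic group.

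As a family the probes gathered near 0. Of the 8 tested probes, 0 were called at a limma adjusted p under 0.05 (Benjamini-Hochberg over 20188 probes), where 0% of all were called. An unadjusted p under 0.05 was reached by 0 of the 8, and by 5.46% of all tested probes. On the authors' scaled signals 1 of the 8 reached it, beside 1301 of all 20188 tested probes. The groups did not overlap at 4 probes, MT1H, MT1M and MT1X with the mimic above and MT2A with it below, where 34.7% of all tested probes did not overlap, 17.1% with the mimic above and 17.6% with it below. At MT1F, MT1G and both MT1E probes the difference between the groups was smaller than the difference between the arrays of at least one group, as at 76.7% of all tested probes. The log2 fold change was positive at 5 of 8 probes, against 50.2% of all. Its median was 0.06 over the 8 probes and 6.7e-04 over all tested probes, and single probes ran from -0.04 to 0.20. Under median scaling the median of the 8 probes turned to -0.03, which was 0.05 above that of all tested probes under the same scaling. These 8 probes come from 7 genes on the same 4 arrays and are not replicates of one another.

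Small changes cannot be told from none with these arrays. Larger ones lay outside the fitted intervals of the probes below the top of the scale. Those intervals do not rest on each probe's own spread alone. The fit draws the spread of each probe toward that of all tested probes, with 6.74 prior degrees of freedom. The arrays of a group may also be technical duplicates, so the intervals may leave out a spread between cultures. The 95% interval of the fold change stayed within 1.5-fold in either direction at all 8 probes, as it did at 74.6% of all tested probes. The widest, of MT1E ILMN_2173611, ran from 0.704 to 1.35. The normalized log2 values of this probe had an SD of 0.40 in mimic cells and 0.20 in NC oligo cells. An interval from its own spread alone was not computed, so a larger change at this probe is not excluded. The interval of MT2A, whose signal was at the top of the scale, ran from 0.78 to 1.21. The MT2A interval cannot exclude a larger rise. Its probe was already the 3rd and 6th brightest on the mimic arrays, and quantile normalization sets a value by its rank. The intervals are of fitted values, after an offset of 16 was added to every corrected signal, which by construction draws the fold change of a dim probe such as MT1E ILMN_1718968 toward 0. The mean of the SDs within the groups had a median of 0.07 over the 8 probes and of 0.13 over all tested probes, both on the normalized log2 scale.

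**Figure D3:**
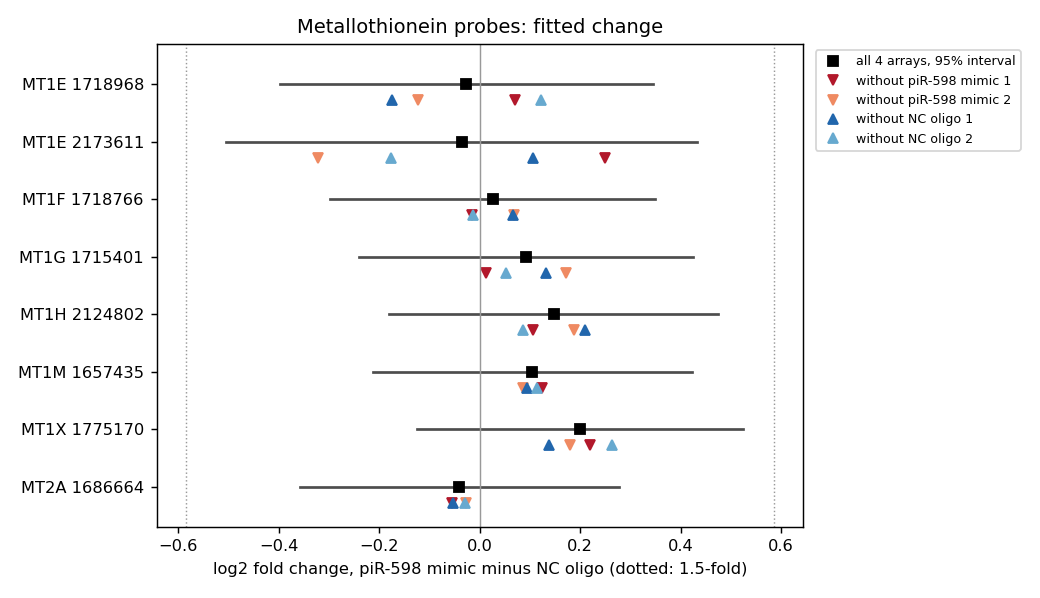
Log2 fold change of each tested metallothionein probe, piR-598 mimic minus NC oligo (squares, with 95% intervals from limma), and its value with each array left out in turn (triangles). Every interval includes 0 and lies inside the dotted lines at 1.5-fold, and the triangles of both MT1E probes fall on both sides of 0.

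The order of the arrays differed from probe to probe. Of the 8 probes, 3 were highest on mimic array 1, 3 on mimic array 2, 0 on NC oligo array 1 and 2 on NC oligo array 2. The lowest value fell on mimic array 1 for 1 probe, on mimic array 2 for 1, and on each NC oligo array for 3. Centred on each probe's mean, the average profile of the 8 probes was -0.0015 and 0.06 on the mimic arrays and -0.02 and -0.04 on the NC oligo arrays. By Euclidean distance to that profile over the 4 arrays, the nearest of 4843 well-expressed named probes were those of FAM120A, TCTN1, RPS16, IFFO1 and ASNS, at distances of 0.01 to 0.02 on the log2 scale. Their log2 fold changes ran from 0.04 to 0.08 and lie near that of the family because they were chosen for this profile (limma adjusted p of at least 0.985).

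Promoter sequence was at hand for MT2A, MT1H and MT1X, 3 of the 8 members, from RefSeq on build GRCh38.p14. The 250 bases before each gene start are shown because metals act on these genes through metal response elements. They also let exact matches to other promoter motifs be compared. They are written 5′ to 3′ on the plus strand, with matches to the core of the metal response element, TGCACNC or TGCGCNC on either strand, in capitals.
MT2A (chr16:56608334-56608583): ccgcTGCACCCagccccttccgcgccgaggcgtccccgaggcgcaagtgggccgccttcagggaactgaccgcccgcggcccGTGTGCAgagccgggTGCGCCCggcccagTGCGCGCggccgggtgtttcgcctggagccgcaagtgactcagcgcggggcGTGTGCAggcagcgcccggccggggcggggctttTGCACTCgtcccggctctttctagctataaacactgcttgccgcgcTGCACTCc
MT1H (chr16:56669564-56669813): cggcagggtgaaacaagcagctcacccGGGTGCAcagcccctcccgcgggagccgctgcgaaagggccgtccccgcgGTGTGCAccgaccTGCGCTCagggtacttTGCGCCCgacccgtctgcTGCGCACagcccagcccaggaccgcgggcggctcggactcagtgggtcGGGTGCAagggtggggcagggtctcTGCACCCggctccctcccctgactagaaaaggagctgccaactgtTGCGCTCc
MT1X (chr16:56682220-56682469): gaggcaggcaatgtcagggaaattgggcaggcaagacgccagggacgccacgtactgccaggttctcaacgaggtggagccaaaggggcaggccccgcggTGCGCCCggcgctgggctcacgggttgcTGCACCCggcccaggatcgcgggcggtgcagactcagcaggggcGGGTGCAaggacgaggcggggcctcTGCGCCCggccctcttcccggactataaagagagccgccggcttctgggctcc

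These windows held 7 core matches before MT2A, 8 before MT1H and 4 before MT1X. At least 1 match was present in 24.8% of the 35116 windows of the same length in the table, and 4 or more in 0.37%. The MT1H and MT1X windows shared the place of 2 matches, at 78 to 72 and 53 to 47 bases before the gene start, and MT2A had one at 54 to 48. MT2A and MT1H shared the place of a match at 8 to 2 bases before the start. TATAAA, the TATA box sequence, matched at 29 bases before the start of MT2A and 30 before that of MT1X, and at 0 places before MT1H, where 10.7% of all windows held it. TGACTCA, the site of AP-1, matched once before MT2A and in 4.2% of all windows. It lay inside a match to TGACNNNGC, the core of the antioxidant response element, which also matched once before MT1X and in 10.9% of all windows. GGGCGG, the GC box, matched at 2 places before MT2A, 1 before MT1H and 2 before MT1X, and in 42.6% of all windows, and one of those before MT1X overlapped a metal response element core. The G and C content was 73.2%, 70.4% and 70% in that gene order, against a median of 58% over all windows. A match is a description of the letters and not of binding.

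**Figure D4:**
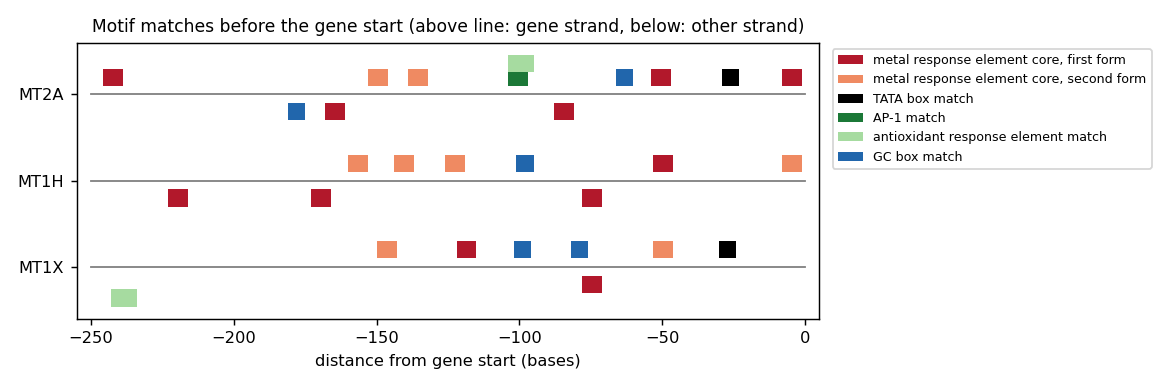
Motif matches in the 250 bases before the start of MT2A, MT1H and MT1X, by distance from the gene start in bases. Boxes above each line are on the strand of the gene and boxes below on the other strand. Metal response element cores number 7, 8 and 4 from top to bottom, and a TATA box match stands near the start of MT2A and MT1X only among these genes.

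Of 13 other symbols listed, those of further metallothionein genes and of TESMIN, 6 had a probe in the annotation used here, and 5 of these were at or near background. The exception was MT3. MT3, the form best known from neurons and astrocytes, was detected on all 4 arrays with a signal of 313 and 334 in mimic cells, against 384 and 349 in NC oligo cells. Its normalized log2 values overlapped between the groups, with a log2 fold change of -0.03 ± 0.14 (SE, limma adjusted p = 0.994). MT1L, a transcribed pseudogene, was seen on 1 mimic array and 1 NC oligo array, and had -0.14 ± 0.16 (SE, limma adjusted p = 0.969). MT1B, and MT4, which is best known from stratified epithelia, were detected on 0 arrays, as was TESMIN, a testis gene with a cysteine-rich protein. MT1IP was detected on 1 mimic array, at a detection p of 0.0234, and was not tested.

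The genes around the metallothioneins were read from 8 lists holding 84 gene symbols, counting the other metallothioneins, of which 54 had a tested probe. Of their 67 tested probes 0 passed limma's test in either direction and 0 had an unadjusted p under 0.05, where 5.46% of all tested probes did. On the authors' scaled signals the count was 7 of the 67, beside 1301 of all 20188 tested probes. After normalization, 29 of the 67 were higher and 38 lower with the mimic. MTF1, the metal-sensing activator of the family, had normalized log2 values of 8.12 and 8.39 in mimic cells, against 8.05 and 7.96 in NC oligo cells. The mimic arrays lay above the NC oligo arrays here but overlapped them in the deposited and the scaled signals, and the log2 fold change of 0.25 ± 0.16 (SE) did not pass the test (limma adjusted p = 0.919). In the same list of transcriptional regulators, 4 of 7 probes were positive. It also held KEAP1, the inhibitor of NRF2, at 0.20 and -0.03 by its 2 tested probes, and NFE2L2, which encodes NRF2, at -0.33, a value for which mimic array 1 was low, with 7.65 and 8.62 in mimic cells, against 8.38 and 8.57 in NC oligo cells.

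The tested probes of zinc exporters of the SLC30 family, most of which move zinc out of the cytosol, all had values below 0. This pattern was picked out after its values were seen. Of 10 listed genes 6 had a tested probe, and their 8 probes had log2 fold changes from -0.32 to -0.08 with a median of -0.22, where the median of all tested probes was 6.7e-04 and 49.8% of them were below 0. None passed limma's test (adjusted p of at least 0.9). SLC30A1, the plasma membrane exporter and a known MTF1 target, had 6.89 and 6.89 in mimic cells at probe ILMN_1745021, against 7.21 and 7.14 in NC oligo cells. That is a log2 fold change of -0.29 ± 0.14 (SE, limma adjusted p = 0.9) without overlap of the groups. Its other probe, ILMN_2067852, overlapped between the groups and had -0.08 ± 0.16 (SE, limma adjusted p = 0.986). SLC30A9 had -0.32 ± 0.20 (SE), with 9.12 and 9.74 in mimic cells, against 9.72 and 9.79 in NC oligo cells, so mimic array 1 alone was low. SLC30A3, detected on 1 of 2 mimic arrays, had -0.27 ± 0.19 (SE). The number of these 8 probes below 0 was 7 without mimic replicate 1, 7 without mimic replicate 2, and 6 with NC oligo array 1 left out, where the median was -0.12. All 8 were below 0 without NC oligo replicate 2.

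**Figure D5:**
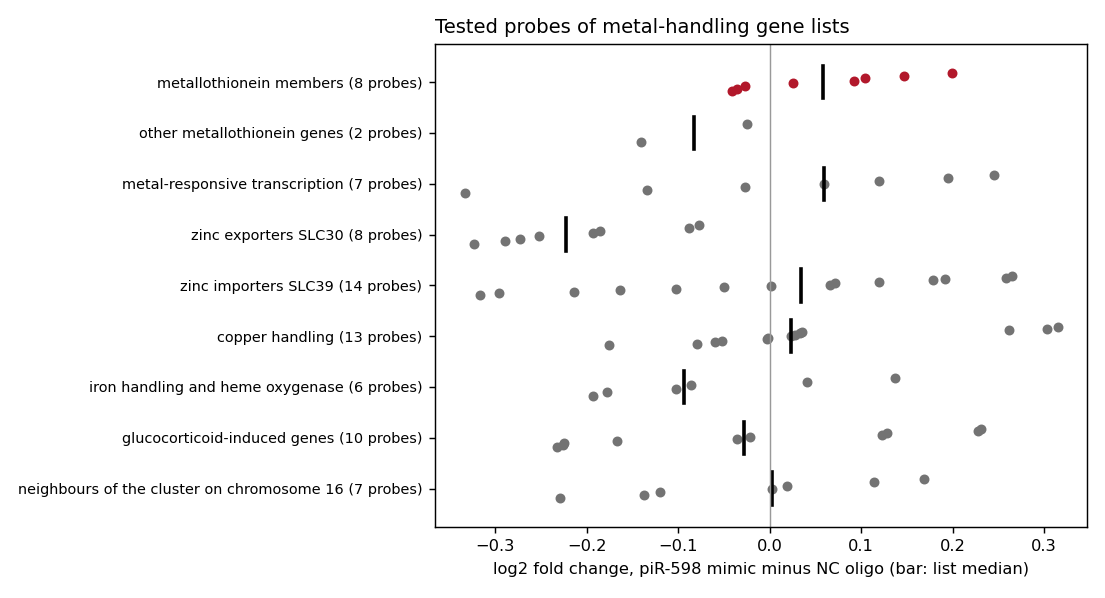
Log2 fold change, piR-598 mimic minus NC oligo, of each tested probe of the metallothionein members and of 8 gene lists, with a bar at each list's median. Besides metal handling, the lists cover other metallothioneins, transcriptional regulators, glucocorticoid-induced genes and genes near the cluster on chromosome 16. No probe shown passed the test, the 8 zinc exporter probes lie between -0.32 and -0.08, and the 8 metallothionein probes between -0.04 and 0.20.

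The zinc importers of the SLC39 family, which bring zinc into the cytosol, had members on both sides, with 8 of 14 probes positive and a median log2 fold change of 0.03. SLC39A7, which releases zinc from the endoplasmic reticulum, had -0.32 ± 0.17 (SE), while SLC39A6 had 0.27 ± 0.15 (SE) and 0.18 ± 0.14 (SE) at its 2 tested probes. The 3 tested probes of SLC39A3 disagreed in sign, with 0.26 ± 0.15, 0.07 ± 0.18 and -0.05 ± 0.14 (SE). The copper genes had 7 of 13 probes positive and a median of 0.02. Among them CCS, the copper chaperone of superoxide dismutase, had 0.32 ± 0.16 (SE) at one probe and 0.03 ± 0.18 (SE) at the other. The copper transporter SLC31A2 had 0.30 ± 0.17 (SE) and the secreted superoxide dismutase SOD3 had 0.26 ± 0.22 (SE). The iron genes had 2 of 6 probes positive and a median of -0.09, with the iron transporter SLC11A2 at -0.19, the iron-regulatory protein ACO1 at -0.18 and the ferritin light chain FTL at 0.14 and 0.04 by its 2 tested probes. All of these missed the threshold (limma adjusted p of at least 0.9).

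Genes that share an inducer or a place with the metallothioneins were also spread around 0. Of 10 probes for glucocorticoid-induced genes 4 were positive, with a median log2 fold change of -0.03. TSC22D3, which encodes the glucocorticoid-induced leucine zipper, had 0.23 at both of its tested probes, KLF9 had -0.23 and ERRFI1, an inhibitor of the EGF receptor, had -0.23. Of 7 probes for genes near the cluster on chromosome 16, 4 were positive, with a median of 0.0024. BBS2, a subunit of the ciliary BBSome, had 0.17 and 0.11 at its 2 tested probes, NUDT21, a factor of mRNA 3′ end cleavage, had -0.14 and CETP, detected on 1 of 2 mimic arrays, had -0.23. These missed the threshold as well (limma adjusted p of at least 0.916).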

How the data were processed

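Total RNA was labelled as biotinylated cRNA, per the labels' protocols, and GenomeStudio 2011.1 is named in the submitters' processing notes. The authors deposited a signal intensity per probe and array, linear and not background-subtracted, with a detection p-value beside it, per the file headers. A second deposited table holds these intensities times 1 constant per array and was used as an alternative. Groups and replicate numbers come from the sample titles.

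Signals were corrected by normexp with the background inferred from the detection p (offset 16), quantile normalized and taken to log2 (neqc, limma 3.58.1, R 4.3.3). The test took the 20188 of 47318 probes that 2 or more of the 4 arrays detected (detection p under 0.05). Each was tested with lmFit and eBayes, two-sided, with Benjamini-Hochberg adjustment over all of them. The prior carried 6.74 degrees of freedom, so each probe's spread leans on that of all probes. The script was tested on simulated data.

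The platform annotation names 30112 probes with 1 symbol, 8 with several and 17198 with none. Of those with 1 symbol 30073 matched RefSeq by gene identifier, and 0 symbols changed. The members and lists were chosen with earlier results of these data known. All member probes, MTF1 and SLC30A1 were named whatever their values, and from each other list the 3 genes of smallest unadjusted p. The nearest genes by profile were taken among probes detected on all 4 arrays with a mean log2 signal of at least 8. Motifs were searched on both strands of RefSeq promoter sequences. No slide or position of an array entered the fit.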

Additional observations from a re-analysis of the deposited data

How the results depend on the processing

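Alternatives changed the normalization (median scaling, cyclic loess, or the authors' scaled signals), the background step (left out, or an offset of 50), the filter (none, or a detection p under 0.01 on each of the 4 arrays) and the model (an intensity trend, the replicate number as a block, or an array left out). Under all of them 0 metallothionein probes and 0 members of the gene lists were called by limma. Over all tested probes 0 were called, except 1 without mimic replicate 2 and 3 without NC oligo replicate 2, so the range with an array left out was 0 to 3. These fits hold 1 array in one group, which is assumed to vary like the other group. The list probes at an unadjusted p under 0.05, 0 of 67 with the processing used above, numbered 7 on the authors' scaled signals and 4 without background correction. Over all 20188 tested probes the numbers were 1301 and 1140, against 1102 with the processing used above. Without a detection filter there were 6 list probes, counted with the undetected ones included, beside 2567 of 47318 probes. The median log2 fold change of the member probes, 0.06, was -0.0314 under median scaling, where the median of all tested probes was -0.09, so that the members lay 0.05 above it. It was 0.0256 without a detection filter, which adds the undetected MT1H probe, and 0.0689 to 0.0997 with an array left out. The filters, the trend and the block could not change a fold change by construction. Of the 72 values of single member probes that an alternative could change, 60 kept their direction, 12 turned and 0 passed the test. Median scaling turned MT1F to -0.0707, MT1G to -0.0274 and MT1M to -0.0354, though each lay above the median of all probes there. The authors' scaled signals turned MT1E ILMN_1718968 to 0.0285 and MT2A to 0.0560, and cyclic loess turned MT2A to 0.0489. With an array left out, MT1E ILMN_1718968 ran from -0.17 to 0.12, MT1E ILMN_2173611 from -0.32 to 0.25 and MT1F from -0.0164 to 0.0675. The causes were not tested. The replicate block called 0 probes, and in this balanced design it could not move the member median of 0.06. Same-numbered arrays deviated together with r = 0.147 across 20188 probes, which are not independent replicates, and with 2 arrays per group and no shared batch in the labels they share only a number. The zinc exporter count, an alternative chosen after seeing the data, was 8 of 8 probes below 0 under each processing alternative, except 7 of 7 with the stricter detection filter. The share of all tested probes below 0 ran from 43.9% on the authors' scaled signals to 68.7% under median scaling. The median of the zinc exporter probes, -0.22, shrank to -0.12 when the background step was left out, and to -0.15 both at an offset of 50 and on the authors' scaled signals. Signals at the top of the scale, as for MT2A, and near background, as for MT1E ILMN_1718968, limit what a change there can show.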
